A study of Mus musculus with 1545 samples.

Results

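The genes described are those of the voltage-gated sodium channels, the voltage-gated calcium channels and the HCN channels of dorsal horn neurons. They were found by name in the deposited count table, as every sodium channel alpha gene (Scn with a number and the letter a) and beta gene (the letter b), every calcium channel alpha1, beta and gamma gene (Cacna1, Cacnb, Cacng) and every Hcn gene. The rule found 40 of the 24378 genes in the table, and it used no measured value. It left out the alpha2delta subunits of calcium channels, which appear only among the partner genes. The members were 10 sodium alpha, 4 sodium beta, 10 calcium alpha1, 4 calcium beta, 8 calcium gamma and 4 HCN genes.

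Neurons of the mouse spinal cord dorsal horn were dissociated and sequenced singly, and each of the 1545 samples was 1 cell. The vGat-Cre-tdTomato line, in which Cre under the gene of the vesicular transporter for GABA and glycine turns on a red reporter, gave 537 cells from mice of 17, 18 and 24 days. The vGlut2-eGFP line, in which a green reporter stands under the gene of a vesicular glutamate transporter, gave 371 cells from mice of 23 to 26 days. Wild-type C57bl6 mice of 18 to 28 days gave 637 cells with no reporter. No treatment is named for any group. The authors placed the cells in 30 neuron types, 14 inhibitory with 760 cells, 15 excitatory with 767 cells and 1 with conflicting labels and 18 cells (Glut_Gal). Cells that share line, sex label and age label form an animal set, of which there were 3 in the vGat line, 4 in the vGlut2 line and 10 in wild type. The animal set was the unit of every test, it may hold several mice, and p-values measure the spread between sets.

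Voltage-gated sodium channels start and carry the action potential, and their pore-forming alpha subunit is joined by beta subunits that tune gating and attach the channel to the membrane skeleton. Voltage-gated calcium channels let in calcium on depolarisation. Among them the L-type channels act on excitability and gene expression, the P/Q-, N- and R-type channels on transmitter release, and the low-threshold T-type channels on burst firing, with beta subunits that bring the pore to the membrane. Most of the gamma genes encode auxiliary proteins of AMPA receptors, the fast glutamate receptors, rather than parts of calcium channels. HCN channels open on hyperpolarisation and carry an inward current that sets the resting potential and rhythm of a neuron. In the dorsal horn these channels shape how pain and itch circuits fire, and N-type channels there are the target of a spinal analgesic.

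The cells held 14853604 UMIs (counted molecules), of which 33407 or 0.225% came from members. The vGat line had 5730737 UMIs with a median of 10413 per cell, the vGlut2 line 2679914 with a median of 7030, and wild type 6442953 with a median of 8687. Each line was captured in its own runs, which the design does not separate from the lines themselves. Markers of the inhibitory and excitatory classes lay in the types named for them except in Glut_Gal, the type with conflicting labels, which had 161.8 CPM of Gad1 and 112.6 CPM of Slc32a1, both inhibitory markers, beside 91.5 CPM of the excitatory marker Slc17a6. Markers of ganglion sensory neurons and motor neurons were near 0 in both reporter lines. A Xist UMI was found in 871 of 1490 cells labelled male (58.5%), so the sex label served only to separate sets. RNA of oligodendrocytes, the myelin-forming glia, differed between lines. All 6 of its listed genes (among them Mbp, Mog, Mag, Mobp and Cldn11) were detected in each line, and they summed to 1169 to 3959 CPM (UMI counts scaled to a set total of 1000000) in vGat sets and 71.7 to 33539 CPM in vGlut2 sets, against 15216 to 42657 CPM in wild-type sets.

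Counts per member were low, and 27 of the 40 members had at least 200 UMIs over all cells. Sodium alpha genes held 13410 UMIs, calcium alpha1 genes 7395, calcium beta genes 5138, sodium beta genes 3348, calcium gamma genes 2806 and HCN genes 1310. After each cell was thinned to 3000 UMIs, the median member was seen in 7.80% of cells, and Scn2a1, an alpha subunit of axons, in 68.9%. Without thinning those shares were 18.9% and 91.8%. Scn11a, a sodium channel of ganglion nociceptors, had 0 UMIs, which allows a level of up to 0.202 CPM, and Scn10a, another nociceptor channel, had 3. The muscle genes Scn4a, Cacna1s and Cacng1 had 3, 5 and 6 UMIs, and the retinal Cacna1f had 4. Cacng6, Hcn4, Cacng8 and Cacng7 had 5, 9, 11 and 21 UMIs, Scn7a, a sodium sensor, 58 and Scn4b 80. The 13 members under 200 UMIs are described no further by type, since their levels rest on too few molecules.

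The first comparison set neurons of the vGat line against neurons of the vGlut2 line, which asks how the channel genes differ between inhibitory and excitatory neurons. Cacng2 and the T-type gene Cacna1i were higher in the vGat line, and the L-type gene Cacna1d, the T-type gene Cacna1h and Cacng5 were lower. No sodium or HCN gene passed the test. Of 28 members tested, 2 were higher and 3 lower (edgeR's quasi-likelihood test, Benjamini-Hochberg adjusted p under 0.05 over 10598 genes). Over all genes tested 4.32% were called higher and 4.53% lower, so 5 of 28 is a larger share than that of all genes. The median log2 fold change was 0.04 over the members and -0.01 over all genes, and 12 members were too low to be tested. In sums over cells, fewer cells with a transcript and less RNA per cell cannot be told apart.

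Cacng2 encodes stargazin, which brings AMPA receptors to the synapse. It was at 77.4, 90.4 and 115.99 CPM in the vGat sets of 17, 18 and 24 days, against 65.2, 47.8, 29.1 and 18.9 CPM in the vGlut2 sets of 23, 24, 25 and 26 days. The lines did not overlap, and the log2 fold change was 1.24 (SE 0.28, adjusted p = 0.00877 in edgeR). Cacna1i encodes a T-type channel with slow kinetics. It was at 44.4, 62.8 and 47.7 CPM in the same vGat sets, against 10.9, 28.7, 22.0 and 31.4 CPM in the vGlut2 sets. Again each vGat set stood above each vGlut2 set, with a log2 fold change of 1.30 (SE 0.27, adjusted p = 0.00531 in edgeR). That order rests on few molecules. The excitatory cells of the 23-, 24- and 26-day vGlut2 sets had 5, 3 and 5 UMIs of Cacna1i. At 26 days those cells were at 46.04 CPM, above the 17-day vGat set.

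Cacna1d encodes an L-type channel that opens at fairly negative potentials. It was at 22.2, 36.01 and 30.8 CPM in the vGat sets, against 86.9, 66.98, 75.2 and 25.1 CPM in the vGlut2 sets. The groups overlapped through the 26-day vGlut2 set, and the log2 fold change was -1.28 (SE 0.25, adjusted p = 0.00322 in edgeR). Cacna1h encodes the T-type channel known from nociceptors. It was at 36.4, 47.5 and 38.2 CPM in the vGat sets, against 80.4, 86.1, 117.1 and 69.1 CPM in the vGlut2 sets. All vGat sets lay below all vGlut2 sets, with a log2 fold change of -1.27 (SE 0.20, adjusted p = 0.00054 in edgeR). Cacng5 encodes another AMPA receptor auxiliary protein, of a separate branch from stargazin. It was at 31.9, 35.2 and 25.7 CPM in the vGat sets, against 82.5, 76.5, 55.7 and 37.7 CPM in the vGlut2 sets. These groups did not overlap either, with a log2 fold change of -1.03 (SE 0.23, adjusted p = 0.00874 in edgeR).

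Members that were not called include Scn3b, a beta subunit, at 89.9, 91.2 and 100.6 CPM in the vGat sets against 45.6, 19.1, 69.02 and 37.7 CPM in the vGlut2 sets (log2 fold change 0.75, adjusted p = 0.0514 in edgeR). Its groups did not overlap, nor did those of Scn4b and Scn8a. The vGat mice were on the whole younger, and with age as a covariate only Cacng5 passed, with adjusted p of 0.0647 to 0.104 for the other called members in edgeR. The 25-day vGlut2 set held 76.8% of the line's 371 cells, and without it Cacna1d (adjusted p = 0.0579), Cacna1i (0.0786) and Cacng2 (0.183) missed the threshold in edgeR. Cacna1i was also lost without the 18-day vGat set (0.0755) and Cacng5 without the 23-day vGlut2 set (0.0622). The 26-day vGlut2 set had 17 cells, of which 5 were annotated as inhibitory, and 33539 CPM of oligodendrocyte genes. Without it all 5 calls stood, and 3 members were called higher and 5 lower.

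**Figure D1:**
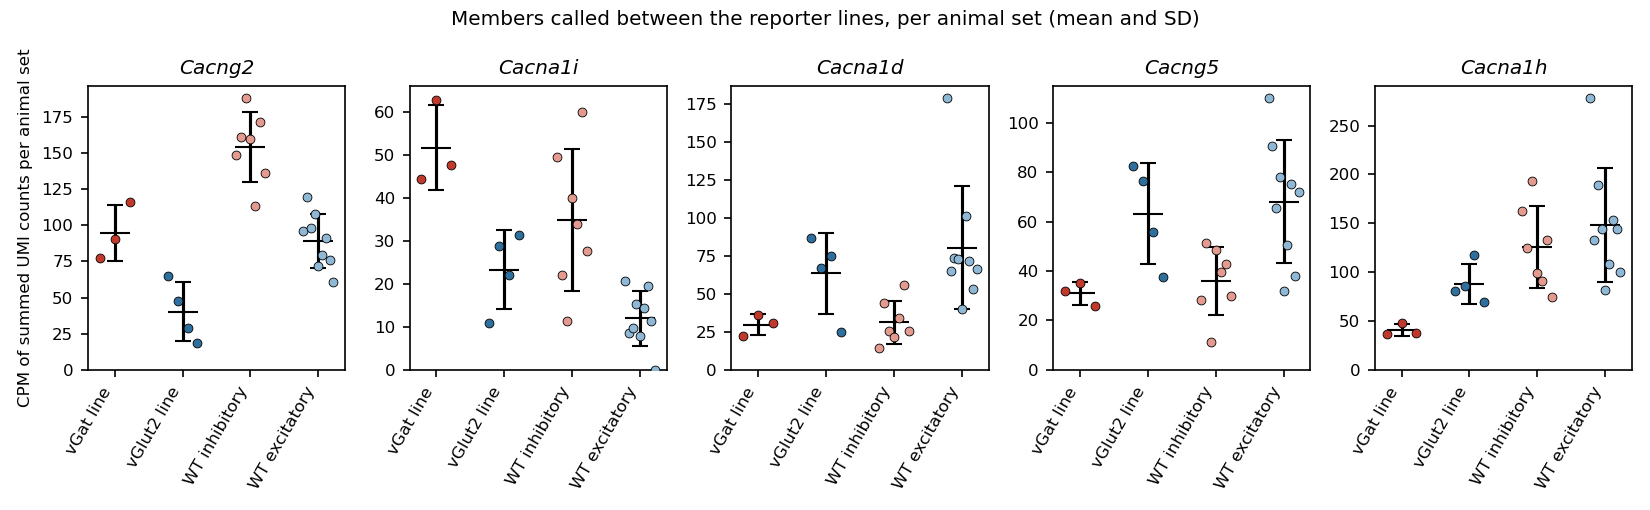
CPM of summed UMI counts (y axis) of the members called between the reporter lines, 1 point per animal set, for vGat and vGlut2 neurons and for wild-type inhibitory and excitatory neurons, with horizontal lines at the mean and bars of 1 SD. Cacng2 and Cacna1i stand higher in vGat than in vGlut2 neurons, and Cacna1d, Cacng5 and Cacna1h lower, while the mean of Cacna1h is lower in both lines than in either wild-type class.

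The same contrast was available within wild-type mice, where both classes came from the same sets, runs and ages and no reporter was used. Inhibitory and excitatory cells of 7 wild-type sets were compared with the set as a block. The classes are the authors' annotation, made from the counts of these cells. Cacng2 and Cacna1i were again higher in inhibitory neurons, and Cacna1d and Cacng5 lower, so 2 members were higher and 2 lower of 25 tested (edgeR, 8135 genes). Over all genes 3.17% were called higher in inhibitory neurons and 2.46% lower.

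Cacna1d was lower in inhibitory than in excitatory neurons in 7 of 7 sets. It had 14.2 CPM in the lowest, 25.6 in the median and 55.6 in the highest inhibitory set, against 39.8, 71.9 and 178.7 CPM in excitatory cells (log2 fold change -1.40, SE 0.29, adjusted p = 0.00395 in edgeR). Cacng2 was higher in inhibitory neurons in 7 of 7 sets, with 113.1, 159.4 and 187.8 CPM, against 71.7, 96.2 and 119.2 CPM in excitatory neurons (0.68, SE 0.14, adjusted p = 0.00453 in edgeR). The ranges of both genes overlapped between classes, while the order within each set held.

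Cacna1i had 11.4, 33.9 and 59.9 CPM in the lowest, median and highest inhibitory set, against 7.96, 11.4 and 20.6 CPM in excitatory neurons, and it was higher in 7 of 7 sets (log2 fold change 1.28, SE 0.33, adjusted p = 0.0197 in edgeR). Cacng5 had 11.4, 39.6 and 51.3 CPM in inhibitory neurons, against 31.8, 75.1 and 109.98 CPM in excitatory neurons, and it was lower in 6 of 7 sets (-0.98, SE 0.26, adjusted p = 0.0261 in edgeR). DESeq2 gave both an adjusted p above the threshold, 0.0572 for Cacna1i and 0.0633 for Cacng5. Cacna1i was also lost in edgeR without the set of 20, 21, 26 or 27 days (adjusted p = 0.0525 to 0.104), and Cacng5 without that of 18, 19 or 20 days or the 22-day set (0.0505 to 0.0857). Without the set as a block Cacng5 missed the threshold (adjusted p = 0.0575 in edgeR) and Cacna1i gave no value. Their ranges overlapped between classes too.

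Cacna1h was called between the lines but not between the wild-type classes. It had 74.6, 124.5 and 193.5 CPM in the lowest, median and highest wild-type inhibitory set, against 81.6, 144.6 and 278.4 CPM in excitatory neurons. The log2 fold change was -0.42 (SE 0.15, adjusted p = 0.149 in edgeR), lower in 5 of 7 sets and not called. The difference of its class effects, between the lines and within wild type, was -1.0 on the log2 scale and did not pass adjustment (p = 0.0134, adjusted p = 0.552 in edgeR). That interaction test called 0 of 26 members, where 0.0842% of all genes were called positive and 0.204% negative, and DESeq2 called 0. The test had no term for the set, so wild-type inhibitory and excitatory sums of the same set entered as unpaired samples. Before adjustment 2 members had p under 0.05 in edgeR, Cacna1h and the beta subunit Cacnb1.

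Oligodendrocyte RNA lay between 16121 and 32622 CPM in wild-type inhibitory sets and between 13005 and 48694 CPM in excitatory sets. In wild-type cells under 10000 CPM of these genes, a limit chosen after seeing the data, Cacna1d was lower in inhibitory neurons by edgeR (-1.56, adjusted p = 0.00138) and Cacna1h was too (-0.79, adjusted p = 0.0172). Cacng2 (0.48, adjusted p = 0.158), Cacna1i (1.22, 0.167) and Cacng5 (-0.74, 0.197) missed the threshold there in edgeR, with their signs kept and fewer cells in each set. Between the reporter lines all 5 members were called in such cells, and so was Scn3b (0.68, adjusted p = 0.0303 in edgeR). These were 3 higher and 3 lower of 27 tested, where 13.0% of all genes were called in either direction.

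The reporter-line and wild-type class comparisons share no sample. The 4 members called in both with the same direction were 80% of the 5 called between lines and 100% of the 4 called within wild type. The same shares over all genes are not given here, so whether the members overlap more than other genes was not tested. The T-type genes went opposite ways. Cacna1i was higher and Cacna1h lower in the vGat line, while Cacna1g, the remaining T-type gene, had a log2 fold change of 0.06 between lines and 0.28 between wild-type classes and was called in neither. The AMPA receptor auxiliary genes parted too, Cacng2 being higher and Cacng5 lower, while Cacng3 was not called (-0.47 and -0.86).

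**Figure D2:**
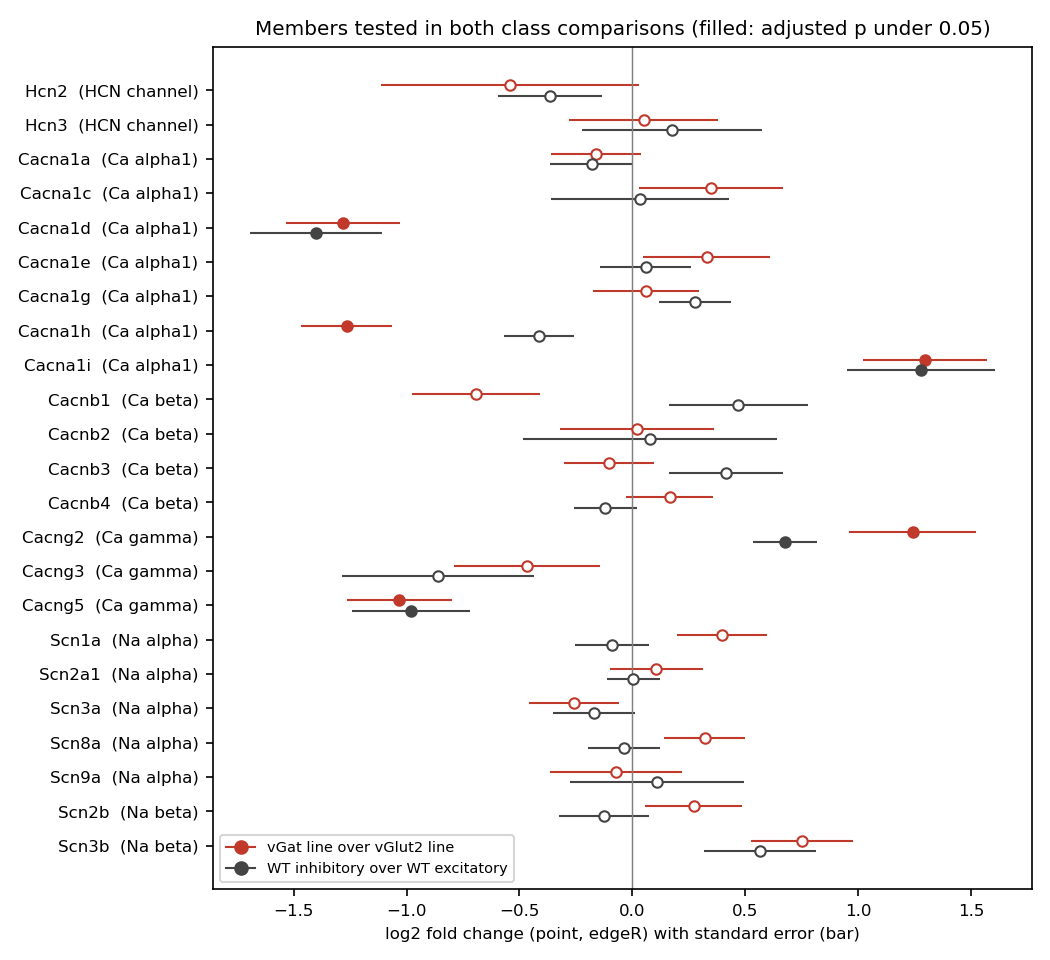
Log2 fold change (x axis, point) with its standard error (bar) of members tested in both class comparisons, for the vGat over the vGlut2 line and for wild-type inhibitory over excitatory neurons, with filled points where the adjusted p was under 0.05. Cacna1i and Cacng2 lie right of 0 and Cacna1d and Cacng5 left of it in both, and the sodium channel genes shown lie between -0.26 and 0.75.

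Single cells of all lines together gave the same direction for these members. After thinning to 3000 UMIs, Cacna1i was seen in 12.8% of inhibitory cells (exact binomial 95% interval 10.5 to 15.3) and in 3.78% of excitatory cells (2.55 to 5.39). Cacng2 was seen in 27.4% of inhibitory cells (24.2 to 30.7) and 15.9% of excitatory cells (13.4 to 18.7). These are the genes higher in inhibitory neurons. Cacna1d was seen in 7.37% of inhibitory cells (5.61 to 9.46) and 19.2% of excitatory cells (16.4 to 22.1). Cacng5 was seen in 8.42% (6.55 to 10.6) and 15.4% (12.9 to 18.1), and Cacna1h in 17.1% (14.5 to 20.0) and 30.5% (27.3 to 33.9), inhibitory cells first. The intervals do not overlap in any of these genes, they cover counting error only, and cells of a set are not independent. Most inhibitory cells came from the vGat line, and nearly all excitatory cells from the vGlut2 line or wild type. The shares therefore mix class with line, and they come from mostly the same cells as the tests above. Cacna1h was not called between the wild-type classes, and the part of the line in its shares was not tested.

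Sodium channel alpha genes showed small class differences. Scn2a1 had log2 fold changes of 0.11 between lines and 0.00 between wild-type classes (SE 0.21 and 0.12), and Scn8a, the main channel of the axon initial segment, 0.32 and -0.04 (SE 0.18 and 0.16). Scn1a, which in cortex is best known from inhibitory interneurons, had 0.40 and -0.09 (SE 0.20 and 0.16). Scn3a, an alpha subunit high in the developing nervous system, had -0.26 and -0.17, and Scn9a, the pain-related channel of sensory neurons, had -0.07 and 0.11. None of these was called in edgeR.

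Partner genes were taken from a list of 35 that bind, anchor or regulate these channels, of which 34 were in the table. Of 27 tested between the reporter lines 4 were higher and 2 lower in vGat, where 4.32% and 4.53% of all genes were. Of 25 tested between the wild-type classes 5 were higher and 3 lower in inhibitory neurons, where 3.17% and 2.46% of all genes were. The alpha2delta subunits carry calcium channels to the membrane. Of these, Cacna2d3 was higher in vGat (log2 fold change 5.08) and in wild-type inhibitory neurons (2.63), Cacna2d2 higher in vGat (0.99), and Cacna2d1 lower in wild-type inhibitory neurons (-3.12), all called in edgeR. Stac, an adaptor of L-type channels, was higher in both (1.56 and 1.93), as was Fgf13, a regulator of sodium channels (1.20 and 0.91). Nedd4l, a ubiquitin ligase that removes sodium channels from the membrane, was lower in both (-1.66 and -1.06). Cabp1, a calcium sensor that binds calcium channels, was higher in wild-type inhibitory neurons (1.41).

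Across the 30 annotated types the members differed in how narrowly they were expressed. Types were defined by the authors from the same cells, so levels by type are a description with no test, pooled over lines with exact Poisson 95% intervals for counting error only. The highest type stood 1.23 to 8.80 times above the median type over the 27 members with at least 200 UMIs, with a median of 2.32. Of these members, 9 reached at least 3 times. The GABA_Crabp1 type was the highest type of Cacna1i, Cacna1e, Cacna1g, Cacnb1 and Scn2b, and Glut_Cck_Maf that of Scn1a and Cacnb4. In wild-type cells alone GABA_Crabp1 ranked 2 for Cacna1i and Scn2b, 3 for Cacna1e, 4 for Cacna1g and 8 for Cacnb1. Glut_Cck_Maf ranked 1 there for Scn1a and 3 for Cacnb4. Over all 27, 13 were highest in an inhibitory type.

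**Figure D3:**
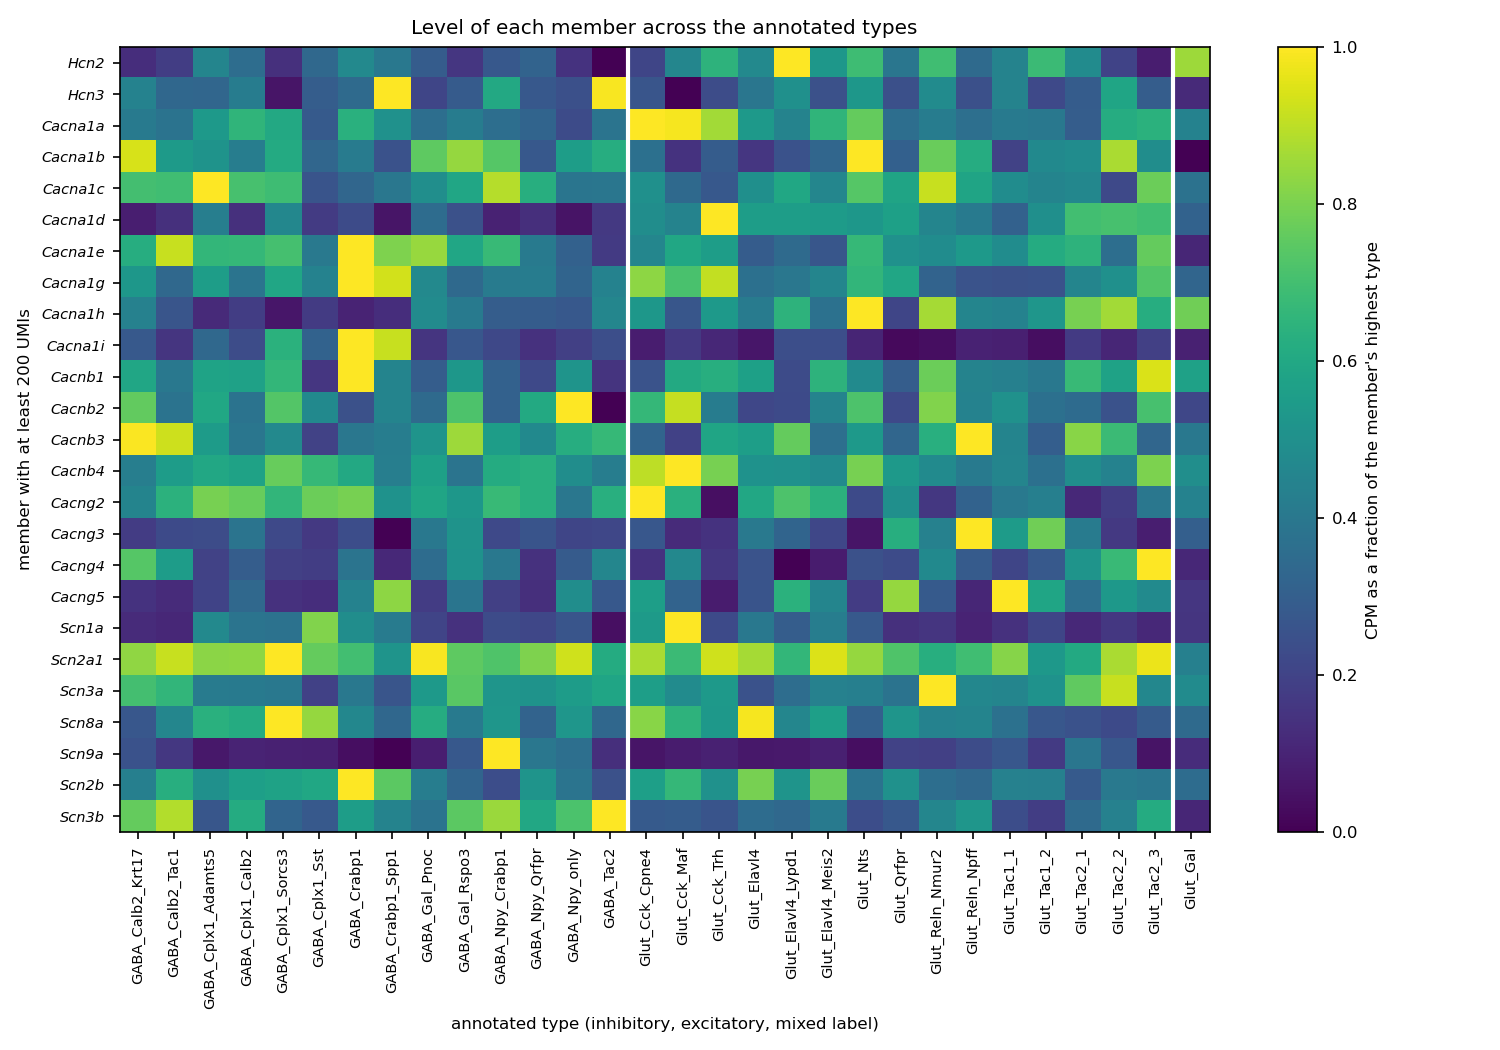
Level of 25 of the 27 members with at least 200 UMIs (rows) in each annotated type (columns, in 3 blocks of inhibitory types, excitatory types and the type with mixed labels), as the CPM divided by that of the member's highest type. Cacna1i is highest in GABA_Crabp1 and GABA_Crabp1_Spp1 and Scn9a is highest in GABA_Npy_Crabp1, while Scn2a1 is high in nearly every type.

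Among the HCN genes, Hcn3 had its highest levels of 59.3 and 58.9 CPM in GABA_Crabp1_Spp1 and GABA_Tac2, types of 11 cells each. The first level rests on 3 UMIs in vGat and 5 in wild-type cells, the second on 2 and 6. By the mean over animal sets with at least 3 of its cells, GABA_Crabp1_Spp1 had 0.0 CPM of Hcn3 and a tied rank of 28.5. It ranked 9.5 after thinning and 3 in wild-type cells alone.

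Cacna1i was led by Crabp1 types. It had 153.6 CPM in GABA_Crabp1 (75 UMIs, interval 120.8 to 192.5), 140.9 CPM in GABA_Crabp1_Spp1 and 97.8 CPM in GABA_Cplx1_Sorcs3, and its lowest level was 3.63 CPM in Glut_Qrfpr. In GABA_Crabp1 it was at 176.1 CPM in vGat cells and 117.4 CPM in wild-type cells, with overlapping counting intervals. Among the other T-type genes Cacna1g was highest there as well (214.99 CPM), and Cacna1h was highest in the excitatory Glut_Nts type (224.2 CPM) and lowest in GABA_Cplx1_Sorcs3 (13.7 CPM). Thus the leading types of Cacna1i and Cacna1h lay in opposite classes.

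Scn9a was the most restricted member, with 109.98 CPM in GABA_Npy_Crabp1 (39 cells, 43 UMIs, interval 79.6 to 148.1) against a median of 12.5 CPM. The next types had 43.4 CPM (GABA_Npy_Qrfpr) and 43.1 CPM (Glut_Tac2_1), and GABA_Crabp1_Spp1 had 0 of its UMIs. In GABA_Npy_Crabp1 the vGat sets of 17, 18 and 24 days had 70.99, 108.1 and 180 CPM and the 27-day wild-type set 68.3 CPM, so each set stood above the median type. In wild-type cells alone GABA_Calb2_Krt17 was the highest type (83.1 CPM, 10 UMIs), with GABA_Npy_Crabp1 at 73.9 CPM (5 UMIs).

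Among the calcium genes, Cacng5 had 133.9 CPM in Glut_Tac1_1 (interval 106.4 to 166.5, with 7 sets between 86.9 and 343.9 CPM) and 112.5 CPM in Glut_Qrfpr. Cacng3, an AMPA receptor auxiliary gene, was highest in Glut_Reln_Npff at 69.4 CPM, and Cacng4 in Glut_Tac2_3 at 63.9 CPM. Cacng2, called higher in inhibitory neurons, was highest in an excitatory type, Glut_Cck_Cpne4 (175.1 CPM), followed by GABA_Crabp1 (139.2 CPM). Cacna1d was highest in Glut_Cck_Trh (133.7 CPM) and lowest in GABA_Npy_only (7.29 CPM). By the mean over animal sets Glut_Cck_Trh ranked 9 for Cacna1d, while in wild-type cells alone it ranked 1. Cacna1a, the P/Q-type pore, was highest in Glut_Cck_Cpne4 and Glut_Cck_Maf (190.7 and 187.8 CPM), and Cacna1b, the N-type pore, in Glut_Nts (58.99 CPM). For Cacna1b Glut_Nts ranked 4 by the mean over animal sets and 1 in wild-type cells alone. Scn2a1 varied least, from 225.1 CPM in Glut_Gal to 514.7 CPM in GABA_Cplx1_Sorcs3.

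The Scn1a gene had its highest levels in types of both classes. It stood at 550.5 CPM in Glut_Cck_Maf (32 cells, interval 460 to 654), 445.9 CPM in GABA_Cplx1_Sst, 300.1 CPM in Glut_Cck_Cpne4 and 270.3 CPM in GABA_Crabp1, against a median of 120.5 CPM and 22.1 CPM in GABA_Tac2. The pattern was seen again between lines. In Glut_Cck_Maf it was at 563.3 CPM in vGlut2 cells and 543.2 CPM in wild-type cells, and in GABA_Cplx1_Sst at 403.3 CPM in vGat cells and 523.1 CPM in wild-type cells. Spearman's rho between a reporter line and wild type was 0.90 over 14 inhibitory types and 0.90 over 13 excitatory types, as a description. For Scn8a those values were 0.70 and 0.90, while for Cacna1i they were 0.77 and -0.10.

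Over all pairs of members with at least 200 UMIs, the median Spearman's rho across the 30 types was 0.03. Among the highest were Scn1a with Scn2b (0.66), a beta subunit gene, and Scn1a with Scn8a (0.64). The types share libraries, and they differ in depth and in the share of cells from each line.

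The genome position of the members adds a neighbour of Scn1a, chosen after its values were seen. Of the 40 members 8 lie on chromosome 2, and Scn1a spans bases 66270778 to 66440840 there on the minus strand (GRCm38, GENCODE M21). Gm13629, an annotated antisense noncoding gene, starts 40 bases away on the plus strand at 66440880 and runs to 66546026, through part of Scn9a (66480080 to 66634962, minus strand). The 250 bases ahead of the RefSeq start of Scn1a (GRCm38.p6, chr2:66440838-66441087, minus strand) are shown because both genes start there, with the 39 bases between the GENCODE starts in capitals.
Scn1a upstream: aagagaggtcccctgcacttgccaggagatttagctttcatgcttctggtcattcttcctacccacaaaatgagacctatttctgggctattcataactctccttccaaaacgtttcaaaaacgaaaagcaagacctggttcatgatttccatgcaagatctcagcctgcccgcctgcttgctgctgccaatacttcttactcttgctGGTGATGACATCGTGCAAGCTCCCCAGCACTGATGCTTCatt

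Gm13629 had 26.9 CPM over all cells, and its levels across types ran with those of Scn1a. It was at 108.6 CPM in GABA_Cplx1_Sst, 106.5 CPM in GABA_Crabp1 and 102.4 CPM in Glut_Cck_Maf, which are among the 4 leading types of Scn1a, and at 10.2 CPM in GABA_Npy_Crabp1, the leading type of Scn9a. Over 30 types its Spearman's rho was 0.78 with Scn1a, rank 1 of the 27 members, and -0.63 with Scn9a, rank 27. Within vGat inhibitory types it was 0.70 with Scn1a and -0.69 with Scn9a (14 types), within vGlut2 excitatory types 0.65 and -0.57 (13 types). In wild type it was 0.65 and -0.47 over 14 inhibitory types and 0.77 and -0.17 over 16 types named Glut. Gm13629 shares 0 exon bases with Scn1a and 180 with Scn9a on the opposite strand. No source used here says whether counting used the strand, so counts of Scn9a and Gm13629 are uncertain where they share bases. Of the other members, 8 in all overlap a gene in the table, and Cacna1d overlaps Dcp1a and Chdh, whose UMIs came to 25.6% and 2.89% of those of Cacna1d.

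Levels in reporter neurons were then set against wild-type neurons of the same class. Hcn2, the HCN gene broadly expressed in the nervous system, was far lower in both reporter lines, and Cacng2 and Cacna1a were lower in both. The comparisons differ in line, capture runs and oligodendrocyte RNA at once, so what the lines contribute cannot be told apart. The wild-type arms come from the same animal sets, though from different cells, so these shared calls are not independent.

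Of 24 members tested, 3 were higher and 7 lower in vGat inhibitory than in wild-type inhibitory neurons (edgeR, 3 against 7 sets, 7687 genes), where 8.34% of all genes were called higher and 12.9% lower. Hcn2 was at 7.99, 6.13 and 2.94 CPM in vGat sets of 17, 18 and 24 days, against 14.2, 47.04 and 73.5 CPM in the lowest, median and highest wild-type set. The groups did not overlap, and the log2 fold change was -3.02 (SE 0.40, adjusted p = 3.04e-06 in edgeR). Cacna1h was at 36.5, 47.5 and 38.2 CPM in vGat, against 74.6, 124.5 and 193.5 CPM in wild type (-1.67, adjusted p = 1.86e-05), again without overlap.

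Smaller decreases were called for 3 other calcium genes. Cacna1a was at 58.2, 82.4 and 61.7 CPM in vGat, against 65.9, 113.1 and 161.9 CPM in the lowest, median and highest wild-type set (log2 fold change -0.82, adjusted p = 0.00556 in edgeR). Cacng2 was at 77.1, 90.4 and 115.99 CPM in vGat, against 113.1, 159.4 and 187.8 CPM in wild type (-0.79, adjusted p = 0.00298 in edgeR). Cacna1g was at 98.2, 91.2 and 87.4 CPM in vGat, against 96.8, 116.7 and 197.7 CPM in wild type (-0.56, adjusted p = 0.0466 in edgeR). Each of these 3 overlapped between the groups, and the Cacna1g call was lost in 7 of 15 other settings. The members called higher in vGat inhibitory neurons were Cacna1b, Scn3b and Scn8a. Scn3b was at 90.2, 91.2 and 100.6 CPM in vGat, against 29.3, 45.2 and 68.3 CPM in wild type (0.84, adjusted p = 0.00397 in edgeR), without overlap. Cacna1b was at 45.1, 47.1 and 38.9 CPM in vGat, against 8.55, 14.6 and 45.2 CPM in wild type (1.26, adjusted p = 0.00508 in edgeR), with overlap. Scn8a was at 132.999, 145.6 and 153.4 CPM in vGat, against 88.5, 104.4 and 111.2 CPM in wild type (0.46, adjusted p = 0.0457 in edgeR). The Scn8a groups did not overlap, but its call was lost in 14 of 15 other settings.

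Of 22 members tested, 1 was higher and 4 lower in vGlut2 excitatory than in wild-type excitatory neurons (edgeR, 4 against 9 sets, 7163 genes), where 4.41% of all genes were called higher and 10.7% lower. Hcn2 was at 4.37, 9.57, 6.65 and 36.8 CPM in vGlut2 sets of 23 to 26 days, against 25.5, 59.1 and 104.6 CPM in the lowest, median and highest wild-type set (log2 fold change -2.92, SE 0.48, adjusted p = 0.000243). The 26-day vGlut2 set alone reached the wild-type range, on 4 UMIs in 12 cells. Cacng2 was at 65.6, 47.8, 29.1 and 9.21 CPM in vGlut2, against 61.03, 91.5 and 119.2 CPM in wild type (-1.28, adjusted p = 0.00338 in edgeR).

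Cacna1a was at 80.9, 95.7, 71.1 and 55.2 CPM in vGlut2 excitatory neurons, against 80.1, 114.1 and 169.9 CPM in wild type, with overlap (log2 fold change -0.78, adjusted p = 0.0184 in edgeR). Cacnb3, a beta subunit partnered with N- and L-type pores, was the member called higher. It was at 65.6, 47.8, 69.02 and 36.8 CPM in vGlut2, against 24.5, 31.9 and 41.2 CPM in wild type (0.80, adjusted p = 0.0170 in edgeR and 0.0524 in DESeq2). The Cacnb3 groups overlapped. Without the 25-day vGlut2 set, which holds most cells of the line, only 1 member was called lower.

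**Figure D4:**
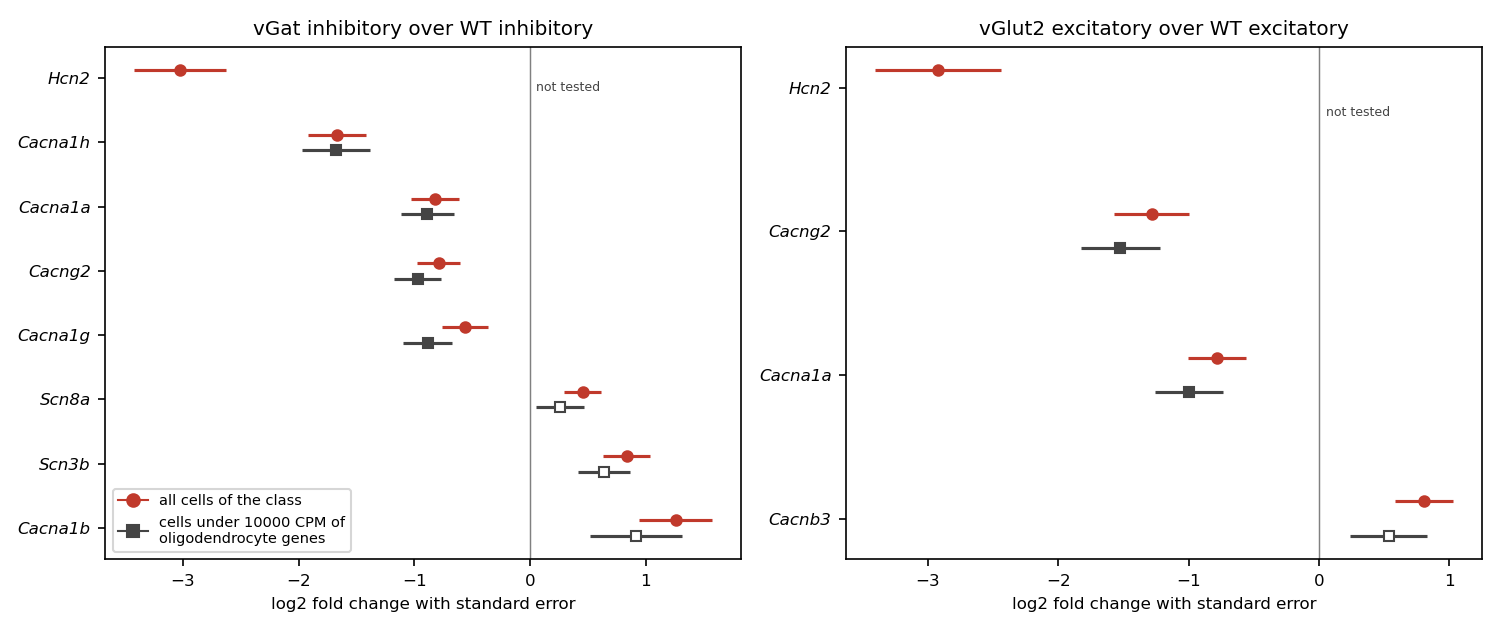
Log2 fold change (x axis) with standard error of members named in the text as called between reporter neurons and wild-type neurons of the same class, in all cells and in cells under 10000 CPM of oligodendrocyte genes, with open squares where the adjusted p was not under 0.05. In cells low in oligodendrocyte RNA the decreases of Cacna1h and Cacng2 in vGat stay at or below -0.97 on the log2 scale, the increases lose their calls, and Hcn2 was too low to be tested.

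Hcn2 and oligodendrocyte RNA were set side by side. In vGat inhibitory cells it was at 5.94 CPM in all cells and 5.43 CPM in the 97.6% under 10000 CPM of oligodendrocyte genes, and in vGlut2 excitatory cells at 7.61 CPM in all cells and 4.00 CPM in the 96.4% under that limit. In wild-type inhibitory cells it was at 48.6 CPM in all cells and 15.7 CPM in the 63.5% under the limit (21 UMIs), and in wild-type excitatory cells at 58.5 CPM and 7.37 CPM in the 60.3% under it (13 UMIs). The 26-day vGlut2 set, with 33539 CPM of oligodendrocyte genes, was also the vGlut2 set with the highest Hcn2 (5 UMIs over all its cells). Over the wild-type sets with at least 10 cells, oligodendrocyte genes ran from 15216 to 42657 CPM, so none lay under 10000 CPM. The sets at those ends had 53.5 and 54.3 CPM of Hcn2. The lowest and highest wild-type Hcn2, 26.1 and 84.2 CPM, were in sets with 26754 and 27088 CPM. Hcn2 had too few UMIs in the low cells to be tested, so the part of oligodendrocyte RNA in its difference between lines and wild type was not tested.

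In the same low cells 0 members were called higher and 6 lower of 20 tested in vGat inhibitory neurons. Over all genes tested there 9.80% were called in either direction. Among the decreases were Cacna1h (log2 fold change -1.68), Cacng2 (-0.97), Cacna1a (-0.89) and Cacna1g (-0.88), and these were as large as in all cells or larger. Scn3b (0.64, adjusted p = 0.0737) and Cacna1b (0.92, 0.150) were no longer called in edgeR. In vGlut2 excitatory neurons 0 were called higher and 5 lower of 17 tested, where 6.73% of all genes were called in either direction. Among these decreases were Cacng2 (-1.52), Cacna1h (-1.04), Cacna1a (-1.0) and Scn1a (-0.97). Cacna1h (adjusted p = 0.0479) and Scn1a (0.0427) lay near the threshold in edgeR, and neither was called in all cells.

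**Figure D5:**
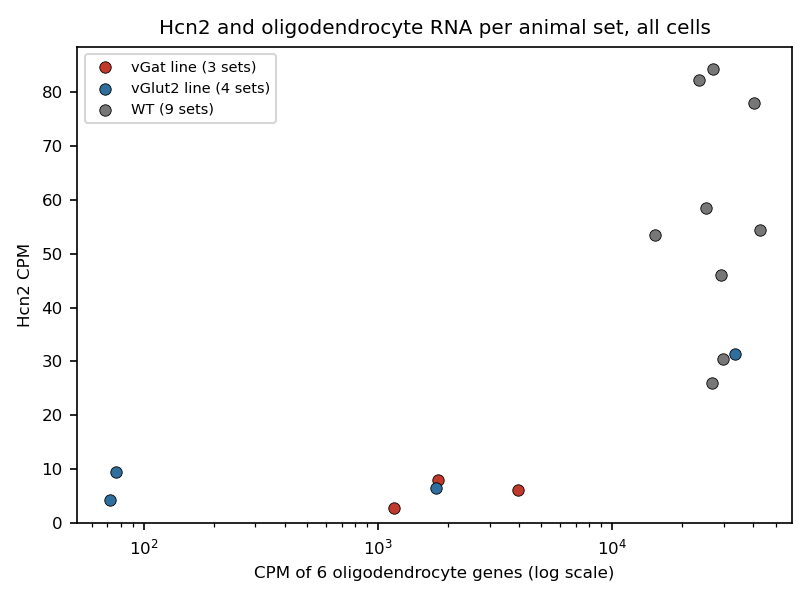
Hcn2 CPM (y axis) against the summed CPM of 6 oligodendrocyte genes (x axis, log scale), 1 point per animal set with at least 10 cells, over all its cells. The vGat and vGlut2 sets lie below 10 CPM of Hcn2, except the 26-day vGlut2 set at 31.4 CPM (5 UMIs). The 9 wild-type sets lie at 26.1 to 84.2 CPM.

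Of 25 partner genes tested in vGat inhibitory neurons 2 were higher and 5 lower, where 8.34% of all genes were called higher and 12.9% lower. Of 20 tested in vGlut2 excitatory neurons 1 was higher and 5 lower, where 4.41% and 10.7% of all genes were. Named after their values were seen, Pex5l, the auxiliary subunit that traffics HCN channels, had log2 fold changes of -3.22 in vGat and -3.08 in vGlut2. The axon initial segment genes Nfasc (-1.53 and -1.33), Sptbn4 (-1.81 and -1.05) and Ank3 (-0.66 and -0.59) were lower too, all called in edgeR. Some of these genes are also expressed by oligodendrocytes, and the part of oligodendrocyte RNA in these partner changes was not tested.

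Age was examined over the 8 wild-type male-labelled sets of 18 to 28 days with at least 10 cells. In edgeR 0 of 25 members were called for age, where 0.034% of 8825 genes were called rising and 0.034% falling, and DESeq2 called 0. Before adjustment 1 member had p under 0.05, Hcn2 with a slope of 0.10 per day on the log2 scale (p = 0.00958, adjusted p = 0.361 in edgeR). The difference of age slopes between inhibitory and excitatory neurons was called for 0 of 25 members by edgeR and by DESeq2, where 0.0% of 8499 genes were called in each direction, with 2 members at an unadjusted p under 0.05 (Cacnb4 and Scn2b).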

How the data were processed

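Per the labels, the authors deposited raw UMI counts (molecules) for every gene in every cell. Per the submitters' processing notes Cell Ranger and mm10 were used, while no source used here gives versions, other steps, doublet removal or the picking of fluorescent cells. Labels for 24378 genes and 1545 cells were read from the file's 6 annotation lines and matched the sample labels in all 1545 cells. No cell was removed. Cells were summed per animal set, and sets with fewer than 10 cells of an arm were left out. Tests used edgeR 4.0.16 (quasi-likelihood, TMM factors, filterByExpr) in R 4.3.3 over all genes, with DESeq2 1.42.0 as an alternative, and set totals ran from 104516 to 2610563 UMIs. Standard errors are the log2 fold change divided by the square root of F, and are approximate. The scripts were tested on simulated data. Wild-type classes shared sets and were blocked by set, except in the interaction test, which had no block. Correlations of paired deviations over 3978 genes were 0.098 to 0.415 in 7 pairs, 6 of them above 0.1. The pairing comes from the labels. CPM are summed UMIs scaled to a total of 1000000. Shares of cells were taken after thinning to 3000 UMIs, with exact 95% intervals. The floor for a count of 0 is 3 counts. Positions are from GENCODE M21 and the sequence from RefSeq (GRCm38.p6). Scn2a1 is the older symbol of Scn2a. Values per set are given for the called members that are reported. Types are given in detail for members at least 3 times above the median type, and more briefly for some members below that. Members, lists and tests were chosen with earlier results of these data known. Alternatives were other size factors, no filter, DESeq2, leaving out each set, age as a covariate, cells of the annotated class, no block and, added after seeing the data, cells low in oligodendrocyte RNA. Some members and 1 marker gene are not reported here.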

Additional observations from a re-analysis of the deposited data

Results flagged for a closer look

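In 31 groups of 4 to 10 animal sets examined for a set far from the others, 2 values were flagged, and chance flags about 1 in 20 groups. Cacna1d reached 178.7 CPM in wild-type excitatory neurons of the 22-day set labelled female, far above the other wild-type excitatory sets. Hcn2 reached 36.8 CPM in vGlut2 excitatory neurons of the 26-day set, above the other vGlut2 sets. That value rests on 4 UMIs in 12 cells, against 2, 1 and 13 UMIs in the sets of 23, 24 and 25 days. The 26-day set had 33539 CPM of oligodendrocyte genes. The part of that RNA in the Hcn2 value was not tested.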

How the results depend on the processing

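Over the alternatives of 24 called log2 fold changes, 84.1% kept the call and direction, 15.9% lost the threshold and 0 reversed. Between the reporter lines 0 members were called higher and 1 lower with age as a covariate. Between the wild-type classes 1 higher and 1 lower were called by DESeq2, likewise 1 and 1 without the replicate block, and 0 higher in cells under 10000 CPM of oligodendrocyte genes, a limit added after seeing the data. In those cells 0 members were called higher in vGat inhibitory over wild-type inhibitory neurons and 0 higher in vGlut2 excitatory over wild-type excitatory neurons, where DESeq2 also called 0 higher. Leaving out 1 animal set at a time gave 1 to 3 members higher and 2 to 5 lower between the reporter lines, 1 to 2 higher and 1 to 2 lower between the wild-type classes, 2 to 3 higher and 5 to 7 lower for vGat, and 0 to 2 higher and 1 to 5 lower for vGlut2, each against wild type. The interaction and age tests gave 0 in each such fit. The highest type of a member was the reported one for 16 of 27 members by the mean over sets, 8 with wild-type cells alone and 15 after thinning, and the cause was not tested. The median share of cells with a UMI was 18.9% without thinning. Depth limits the levels by type, where many values rest on fewer than 50 UMIs.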
